A study of Homo sapiens with 22 samples.

Results

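The genes described here are 10 heat shock protein genes, HSPA1A, HSPA1B, DNAJB1, HSPH1, HSPA8, HSP90AA1, HSP90AB1, HSPB1, HSPD1 and HSPE1. They were taken by gene symbol from the mRNA tables of 2 human acute myeloid leukemia (AML) cell lines, and all 10 were among the 20411 genes of each table. MOLM-13 and NB4 cells, labelled as wild type (WT) in genotype, were given DMSO, the solvent control, or 2 μM FP54 for 48 hours. FP54 is a bifunctional compound that joins a binder of FTO, an enzyme that removes m6A marks from RNA, to a ligand of the VHL ubiquitin ligase, and it was made to degrade the FTO protein. RNA with poly(A) tails was sequenced in 3 libraries per treatment and cell line, 12 in all, and levels are given as RPKM, the reads on a gene scaled by its exon bases and by the reads of the library on all genes. The labels number these libraries but do not say that they came from separate cultures, so the p-values measure the spread between these samples, which may be technical. The comparison asks how the mRNA of the heat shock proteins stood after FP54 against DMSO in each line.

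Heat shock proteins are chaperones: they hold, fold and refold other proteins, and many are made in larger amounts when proteins unfold. HSP70 proteins bind exposed stretches of a client in a cycle driven by ATP, J-domain proteins bring clients and start that cycle, and HSP110 proteins release the nucleotide. HSP90 takes over clients such as kinases and hormone receptors with its co-chaperones, small heat shock proteins hold unfolded clients without ATP, and HSP60 with HSP10 forms a folding chamber in mitochondria. The transcription factor HSF1 switches on many of these genes through heat shock elements in their promoters, and AML cells, like other cancer cells, are known to carry high levels of several of the constitutive members.

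Both lines had the markers of the myeloid lineage. A mean of at least 1 RPKM was reached by 12 of 12 myeloid markers in MOLM-13 and by 11 of 12 in NB4 cells, the exception being ELANE in NB4. The 8 lymphoid markers summed to at most 1.57 RPKM in any MOLM-13 library. In NB4 cells they summed to between 7.29 and 8.68 RPKM with DMSO and between 12.8 and 13.3 RPKM with FP54, and CD3D held most of the sum. CD3G and CD2 were at 0 in all MOLM-13 libraries. The reads on genes came to between 16302941 and 17351799 in MOLM-13 DMSO libraries, but to 19196661, 5833283 and 12031635 in FP54 replicates 1 to 3. In NB4 cells they were between 20645228 and 22331843 with DMSO and between 10594723 and 13069239 with FP54. The mean level of 400 olfactory receptor genes, which such cells hardly use, was at most 0.00833 RPKM in any MOLM-13 library. In NB4 cells it was between 0.00175 and 0.00387 RPKM with DMSO and between 0.0509 and 0.0544 RPKM with FP54, far under the level of the 8 members that could be tested. FTO mRNA, whose protein is the target of FP54, was at 1.09, 0.938 and 1.01 RPKM with DMSO and 0.897, 1 and 1.13 RPKM with FP54 in MOLM-13 cells. In NB4 cells it was at 2.86, 2.52 and 2.81 RPKM with DMSO and at 2.11, 1.95 and 2.03 RPKM with FP54.

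The promoters of the members were searched for exact matches to a heat shock element close to the start. The element was searched as neighbouring 3-base units, GAA and TTC in turn with 2 free bases between them, in windows from 250 bases before to 50 bases after the RefSeq start (GRCh38.p14). An element of 2 units, GAANNTTC or TTCNNGAA, was found in 7 of the 10 members and in 13.5% of all 35116 windows. An element of 3 units, GAANNTTCNNGAA or TTCNNGAANNTTC, was found in 3 members, HSPA8, HSP90AA1 and HSPD1, and in 0.49% of all windows. The reverse strand gives the same matches, and an element of 3 units also counts as overlapping elements of 2 units. The stretches that hold the matches are shown 5′ to 3′ along the gene, with the units of the elements and the TATA box in capitals, because they are the letters that set these members apart from each other.
HSPA8, chr11:123062169-123062376, minus strand: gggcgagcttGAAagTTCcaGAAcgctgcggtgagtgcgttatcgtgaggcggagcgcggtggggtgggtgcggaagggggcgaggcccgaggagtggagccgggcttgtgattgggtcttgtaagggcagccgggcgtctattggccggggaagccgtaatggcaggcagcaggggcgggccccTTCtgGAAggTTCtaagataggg
HSP90AA1, chr14:102087095-102087142, minus strand: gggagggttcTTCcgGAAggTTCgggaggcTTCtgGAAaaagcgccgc
HSPD1, chr2:197500058-197500090, minus strand: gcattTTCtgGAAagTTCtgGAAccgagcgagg
DNAJB1, chr19:14518427-14518484, minus strand: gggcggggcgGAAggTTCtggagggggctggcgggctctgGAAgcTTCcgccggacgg
HSPB1, chr7:76302481-76302508, plus strand: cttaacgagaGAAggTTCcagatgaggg
HSPA1A, chr6:31815427-31815528, plus strand: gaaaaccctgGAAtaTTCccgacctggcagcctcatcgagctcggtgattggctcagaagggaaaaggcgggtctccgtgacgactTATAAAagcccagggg
HSPA1B, chr6:31827623-31827724, plus strand: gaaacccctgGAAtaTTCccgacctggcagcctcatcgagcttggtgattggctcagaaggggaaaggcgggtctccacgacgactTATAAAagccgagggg
HSPA8 holds 3 units at 2 places, from 230 to 218 and from 55 to 43 bases before its start. HSP90AA1 holds 3 units from 88 to 76 bases before the start and 2 more from 68 to 61, while the 4 neighbouring units of HSPD1 lie farther out, from 245 to 228. DNAJB1 holds 2 units at 2 places, and HSPB1 has a single match, from 182 to 175. The stress-inducible copies HSPA1A and HSPA1B hold 2 units from 106 to 99 and from 105 to 98 bases before the start. They are the only members with a TATA box, searched as TATAAA on both strands and present in 11.5% of all windows. HSPH1, HSP90AB1 and HSPE1 had no exact match in the window, which says nothing of the factor. Units with a changed letter were not searched in any member, so elements that hold such units were not counted. The start of the HSPH1 window lies 484 bases from that of its canonical transcript. HSPD1 and HSPE1 lie head to head on chromosome 2, and the units of HSPD1 fall just outside the window of HSPE1.

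**Figure D1:**
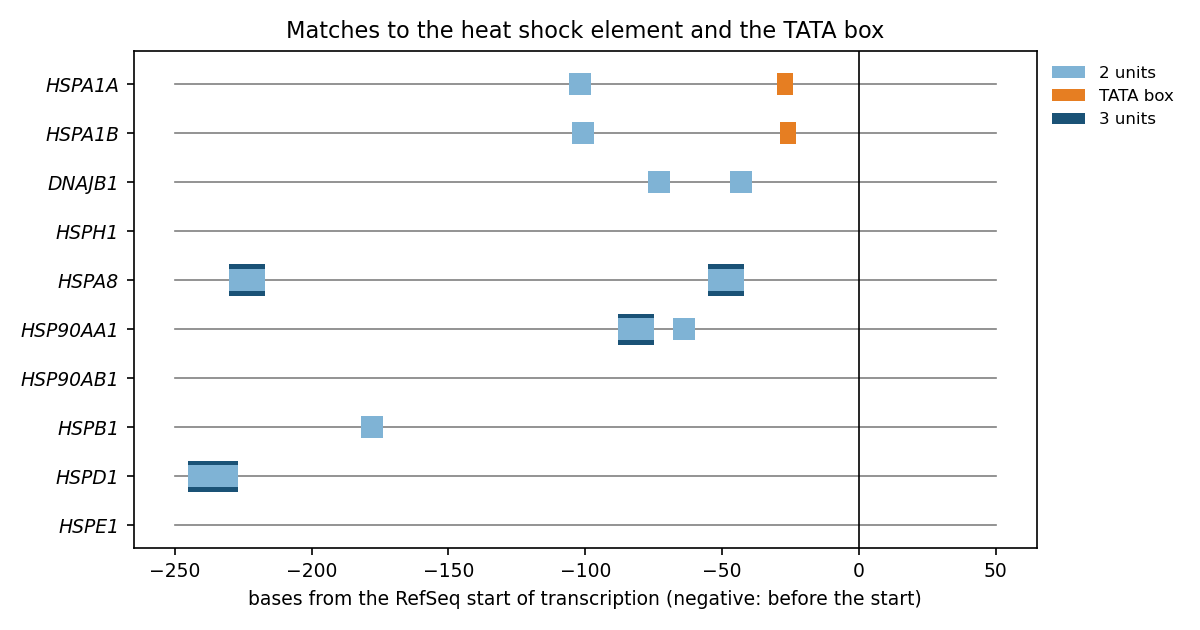
Matches in the promoter window of each heat shock protein gene, by distance in bases from the RefSeq start of transcription. Light bars are elements of 2 units, dark edges mark 3 or more units in a row and orange bars are TATA boxes, and 7 of the 10 members have an element of 2 units and 3 have 3 units.

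With DMSO the members spanned a wide range of levels. In MOLM-13 cells HSP90AB1 was at a mean of 1486 RPKM, followed by HSP90AA1 at 417, HSPA8 at 301, HSPD1 at 84.3 and HSPB1 at 57.9 RPKM, and the libraries of these neighbours did not overlap. DNAJB1 at 14.6 RPKM, HSPH1 at 13.2 and HSPE1 at 5.92 came next, and each overlapped its neighbour. In NB4 cells the order was HSP90AB1 at a mean of 1586 RPKM, HSP90AA1 at 720, HSPA8 at 512, HSPD1 at 206, HSPB1 at 63.0, HSPH1 at 42.9, HSPE1 at 20.8 and DNAJB1 at 10.7 RPKM, with no overlap between neighbours. HSPA1A and HSPA1B were last in both lines, at a mean of at most 0.116 RPKM. The 2 tables were normalized separately, so the levels were not tested between the lines. The length behind an RPKM is that of all annotated exons, and for HSPE1 this is 1823 bases against 557 in the canonical transcript. For DNAJB1 it is 8188 bases against 2242, so levels of such genes stand low against genes with few spare exons.

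After FP54, 6 of the 8 members that could be tested fell in MOLM-13 cells and 6 of 8 in NB4 cells, and none rose in either line, with limma or with limma-voom on recovered reads, nor was any higher at an unadjusted limma p below 0.05. Calls were made in limma on log2(RPKM + 0.1) with the cutoff of the study, which asks for a p-value under 0.01 before adjustment and for a change of 0.5 or more on the log2 scale. Over all tested genes 9.04% were called lower and 9.3% higher in MOLM-13 cells, of 9710, and 10.7% lower and 18.6% higher in NB4 cells, of 9853. HSPH1, HSPA8, HSP90AA1, HSP90AB1 and HSPD1 were called in both lines, HSPB1 in MOLM-13 and HSPE1 in NB4 cells. The median log2 fold change of the 8 tested members was -0.94 in MOLM-13 and -0.87 in NB4 cells, beside 0 and 0.07 over all genes tested. Every FP54 library was lower than every DMSO library for 7 of the 8 in MOLM-13 cells, where 17% of all tested genes showed that, and for 8 of 8 in NB4 cells, where 26.2% did. HSPA1A and HSPA1B did not reach the mean of 1 RPKM that the test needed. In bulk RNA, fewer cells of a kind and less RNA per cell cannot be told apart.

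**Figure D2:**
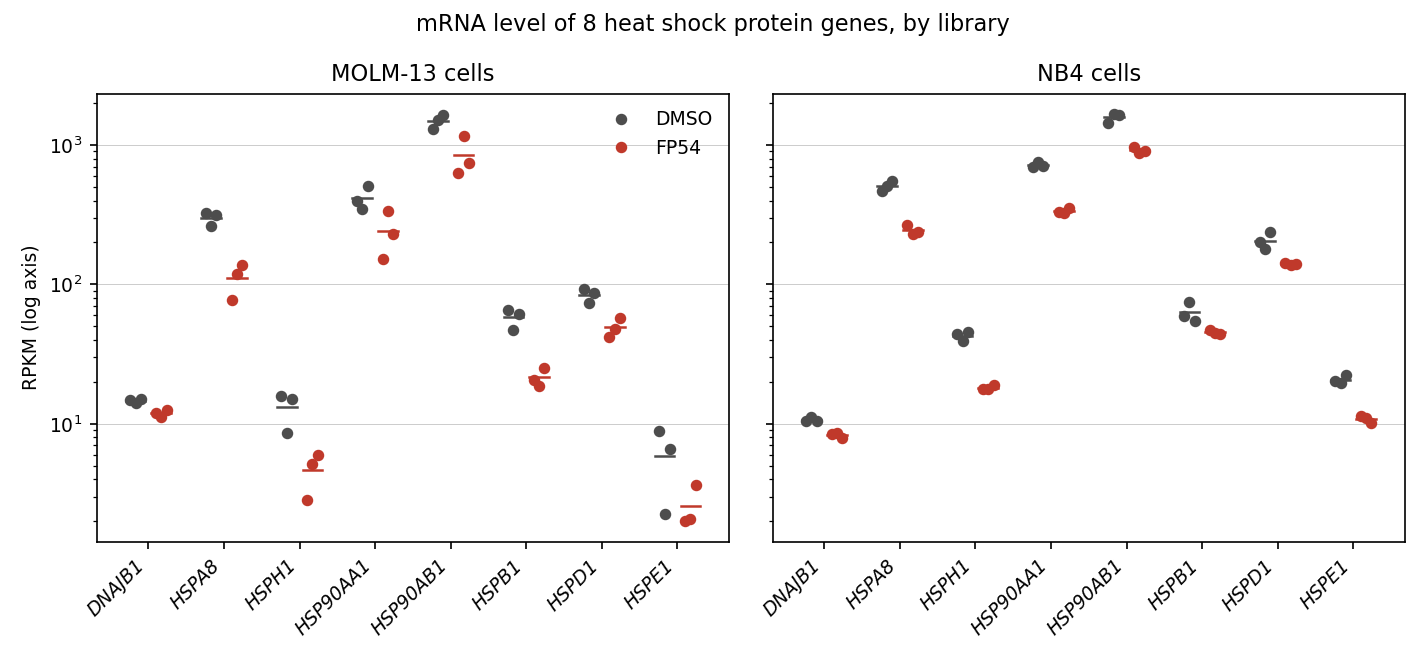
RPKM of the 8 tested heat shock protein genes in each library (points) with the mean of 3 libraries (lines), on a log axis, for DMSO and FP54 in MOLM-13 and NB4 cells. The FP54 points lie under all DMSO points for every gene except HSPE1 in MOLM-13 cells.

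The reads on the 10 members together are not divided by the length of each gene, and most of them were on HSP90AB1, HSP90AA1 and HSPA8. Reads on all 10 members made up 0.853, 0.835 and 1.01% of all reads on genes in the DMSO libraries of MOLM-13 cells and 0.352, 0.63 and 0.469% in the FP54 libraries. In NB4 cells the share was 1.22, 1.33 and 1.36% with DMSO and 0.724, 0.676 and 0.704% with FP54. Treatments did not overlap in either line, and in this share FP54 replicate 2 of MOLM-13 cells, the shallowest library, stood closest to DMSO. By single gene, FP54 replicate 3 was the highest treated MOLM-13 library for 6 of the 8 tested members and replicate 2 for 2. Replicate 2 was also the lowest for 2.

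Among the HSP70 and HSP110 genes, HSPA8 and HSPH1 fell the most. HSPA8 (chromosome 11, 123057489 to 123063230 in hg38, minus strand) encodes the constitutive HSP70 of the cytosol, which folds new proteins and uncoats clathrin vesicles. In MOLM-13 cells HSPA8 was at 324, 261 and 317 RPKM with DMSO and at 77.5, 118 and 137 RPKM with FP54. Its FP54 level was 36.9% of that with DMSO, a log2 fold change of -1.47 ± 0.21 (SE, n = 3, limma adjusted p = 0.00267). The lowest DMSO library was well above the highest FP54 library, and FP54 replicate 1 was the lowest. In NB4 cells HSPA8 was at 471, 512 and 555 RPKM with DMSO and at 266, 230 and 239 RPKM with FP54. That is 47.8% of the DMSO level, a log2 fold change of -1.07 ± 0.09 (SE, n = 3, limma adjusted p = 9.71e-06).

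HSPH1 (chromosome 13, 31134973 to 31162388, minus strand) encodes the HSP110 that releases nucleotide from HSP70 and helps to take apart protein aggregates. In MOLM-13 cells HSPH1 was at 15.8, 8.52 and 15.1 RPKM with DMSO and at 2.83, 5.15 and 5.92 RPKM with FP54. DMSO replicate 2 was far below the other DMSO libraries but still above every FP54 library. The log2 fold change was -1.50 ± 0.30 (SE, n = 3, limma adjusted p = 0.0101), with FP54 at 35.2% of DMSO. In NB4 cells HSPH1 was at 44.3, 39.0 and 45.4 RPKM with DMSO and at 17.7, 17.6 and 19.0 RPKM with FP54. The treated libraries lay close together, and the log2 fold change was -1.24 ± 0.09 (SE, n = 3, limma adjusted p = 2.44e-06). Of the 9853 genes tested in NB4 cells, HSPH1 had the 67th most negative log2 fold change, and HSPA8 the 110th.

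DNAJB1 (chromosome 19, 14514769 to 14560391, minus strand) encodes the J-domain partner that delivers clients to HSP70, and it is a classic target of HSF1. In MOLM-13 cells DNAJB1 was at 14.7, 14.1 and 15.1 RPKM with DMSO and at 12, 11.2 and 12.5 RPKM with FP54. In NB4 cells it was at 10.5, 11.1 and 10.5 RPKM with DMSO and at 8.44, 8.60 and 7.86 RPKM with FP54. The treatments did not overlap in either line, but DNAJB1 was not called in either. Its log2 fold change was -0.30 ± 0.13 in MOLM-13 cells (SE, n = 3, limma adjusted p = 0.132) and -0.37 ± 0.09 in NB4 cells (SE, n = 3, limma adjusted p = 0.0056), under the minimum size for a call. It had the smallest change of the 8 tested members in both lines.

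HSPA1A and HSPA1B (chromosome 6, 31815543 to 31817946 and 31827738 to 31830254, plus strand) encode nearly the same stress-inducible HSP70 and have a single exon each. In MOLM-13 cells HSPA1A held 2, 1 and 8 reads with DMSO and 3, 1 and 3 with FP54, and HSPA1B held 0, 0 and 1 read with DMSO and 0 in all FP54 libraries. In NB4 cells HSPA1A held 7, 4 and 7 reads with DMSO and 1, 2 and 3 with FP54, and HSPA1B held 1, 0 and 1 read with DMSO and 1, 0 and 0 with FP54. A count of 0 allows up to 3 reads, so no fold is given for either gene. Of the 80-base windows of their transcripts, 73.5% for HSPA1A and 70.0% for HSPA1B occur letter for letter in the other copy. With the alternate haplotypes of hg38 counted too, 0 windows of either gene were found at its own place alone. For the other 8 members at most 19.5% of windows occur elsewhere, with HSPE1 and HSPD1 at the top. Whether reads with several places were counted, and whether the alternate haplotypes were in the index, is not given in the sources used here, so these low values are not a measure of how much HSPA1A or HSPA1B mRNA the cells held.

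The HSP90 pair was the most abundant and fell in both lines. HSP90AA1 (chromosome 14, 102080742 to 102139699, minus strand) encodes the inducible HSP90 alpha of the cytosol, and HSP90AB1 (chromosome 6, 44246166 to 44253888, plus strand) the constitutive HSP90 beta. In MOLM-13 cells HSP90AA1 was at 394, 347 and 510 RPKM with DMSO and at 151, 339 and 230 RPKM with FP54. FP54 replicate 2, the shallowest library, came close to the lowest DMSO library. The log2 fold change was -0.85 ± 0.26 (SE, n = 3, limma adjusted p = 0.0468), close to the cutoff. The call was lost when any library but FP54 replicate 2 was left out, with log2 fold changes between -0.98 and -0.56, and in 8 of 16 alternatives in all. In NB4 cells HSP90AA1 was at 692, 759 and 710 RPKM with DMSO and at 330, 326 and 352 RPKM with FP54. The libraries of a treatment lay close together there, and FP54 was at 46.6% of DMSO, a log2 fold change of -1.10 ± 0.08 (SE, n = 3, limma adjusted p = 3.31e-06).

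HSP90AB1 was at 1299, 1505 and 1654 RPKM with DMSO and at 636, 1162 and 742 RPKM with FP54 in MOLM-13 cells. Again FP54 replicate 2 stood above the other treated libraries. The log2 fold change was -0.85 ± 0.22 (SE, n = 3, limma adjusted p = 0.0252), and the call was lost in 5 of 16 alternatives, among them leaving out any library but DMSO replicate 1 and FP54 replicate 2 (between -0.84 and -0.67). In NB4 cells HSP90AB1 was at 1439, 1675 and 1644 RPKM with DMSO and at 961, 879 and 903 RPKM with FP54. FP54 was at 57.7% of DMSO with a log2 fold change of -0.79 ± 0.09 (SE, n = 3, limma adjusted p = 6.91e-05). Duplicate reads had been removed before counting, and HSP90AB1 still held between 21.49 and 28.69 reads per exon base in the DMSO libraries of MOLM-13 cells and 12.2, 6.77 and 8.92 in FP54 replicates 1 to 3. In NB4 cells these were between 29.71 and 36.73 with DMSO and between 10.19 and 11.81 with FP54, and the part of duplicate removal in the levels was not tested.

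HSPB1 (chromosome 7, 76302673 to 76304295, plus strand) encodes HSP27, a small heat shock protein that holds unfolded clients and binds actin, and its response differed between the lines. In MOLM-13 cells HSPB1 was at 65, 47.3 and 61.4 RPKM with DMSO and at 20.5, 18.8 and 25.2 RPKM with FP54. FP54 was at 37.1% of DMSO, a log2 fold change of -1.42 ± 0.17 (SE, n = 3, limma adjusted p = 0.00161), and all treated libraries were far below the controls. In NB4 cells HSPB1 was at 59.8, 74.7 and 54.6 RPKM with DMSO and at 47.2, 45 and 44 RPKM with FP54. Treatments did not overlap, but the log2 fold change of -0.46 ± 0.11 (SE, n = 3, limma adjusted p = 0.00566) was just under the minimum size for a call, and without DMSO replicate 3 it was -0.56 and called. The change was larger in size in MOLM-13 cells by 0.96 on the log2 scale (95% interval 0.51 to 1.42; limma interaction adjusted p = 0.00747).

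Of the 8 members tested in both lines, HSPB1 was the only one with a different FP54 effect at an adjusted p below 0.05, beside 14.2% of the 8849 genes tested that way, so 1 of 8 is no larger a share than over all genes. For the other 7 the interaction adjusted p lay between 0.3 and 0.936. Their intervals were wide: from -0.12 to 0.93 for HSPA8, from -0.91 to 0.42 for HSP90AA1 and from -1 to 1.16 for HSPE1, as NB4 minus MOLM-13 on the log2 scale. The interval was narrowest for DNAJB1, from -0.37 to 0.24. Without DMSO replicate 3 of both lines the HSPB1 difference was 0.82 with an interaction adjusted p of 0.0602.

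**Figure D3:**
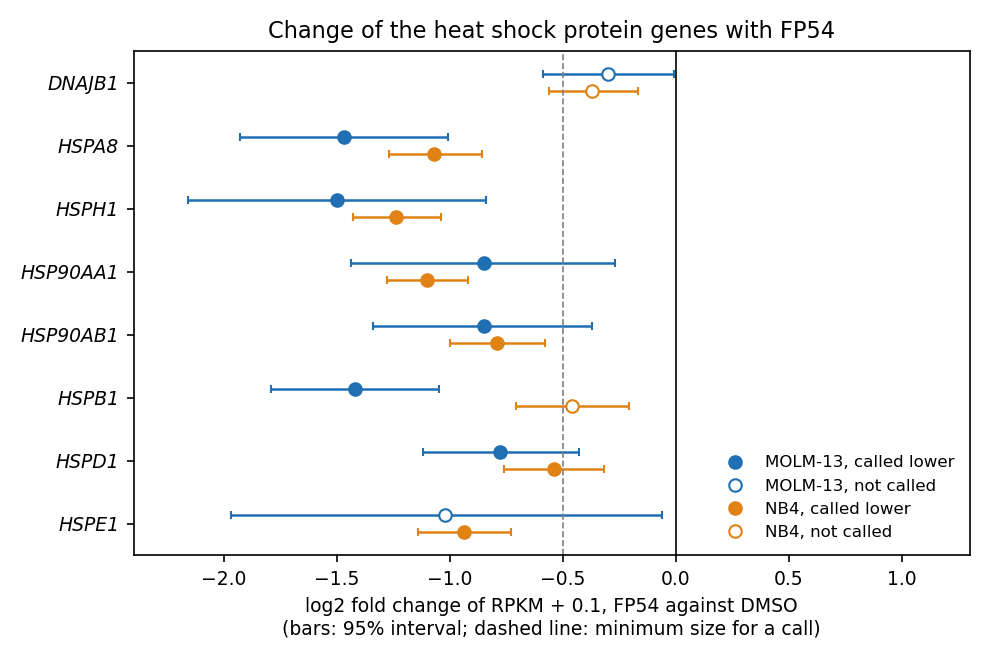
Log2 fold change of RPKM + 0.1, FP54 against DMSO, for the 8 tested heat shock protein genes in MOLM-13 (blue) and NB4 cells (orange). Bars are 95% intervals, filled points were called lower and the dashed line is the minimum size for a call; for HSPB1 the values are -1.42 and -0.46.

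HSPD1 (chromosome 2, 197486584 to 197516737, minus strand) and HSPE1 (chromosome 2, 197500140 to 197503449, plus strand) encode the mitochondrial HSP60 and its lid HSP10. In MOLM-13 cells HSPD1 was at 92.6, 74.1 and 86.2 RPKM with DMSO and at 42.2, 48.1 and 57.9 RPKM with FP54. The groups were clearly apart, with a log2 fold change of -0.78 ± 0.16 (SE, n = 3, limma adjusted p = 0.0103). In NB4 cells HSPD1 was at 201, 180 and 236 RPKM with DMSO and at 143, 138 and 141 RPKM with FP54, a log2 fold change of -0.54 ± 0.10 (SE, n = 3, limma adjusted p = 0.0013). Without DMSO replicate 3, its highest library, this was -0.44 and under the minimum size for a call.

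HSPE1 was at 20.3, 19.5 and 22.5 RPKM with DMSO and at 11.3, 11 and 10.1 RPKM with FP54 in NB4 cells. The treated libraries were all near 51.9% of the DMSO mean, a log2 fold change of -0.94 ± 0.09 (SE, n = 3, limma adjusted p = 2.05e-05). In MOLM-13 cells HSPE1 was at 8.92, 2.25 and 6.58 RPKM with DMSO and at 2.00, 2.07 and 3.65 RPKM with FP54. DMSO replicate 2 lay within the range of the treated libraries, so the groups overlapped and HSPE1 was not called, with a log2 fold change of -1.02 ± 0.43 (SE, n = 3, limma adjusted p = 0.12). Without that library it was -1.59 and called, and with the replicate number as a block HSPE1 was called as well. Of the exon bases of HSPE1, 10.5% are shared with the read-through gene HSPE1-MOB4 on the same strand and 7.4% with HSPD1 on the opposite strand, and reads in those bases are uncertain.

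Within a library the balance between paralogs or partners can be read without its scaling. The balance is not free of duplicate removal, which may act unequally on genes with unequal reads per exon base. That part was not tested. In NB4 cells HSP90AA1 minus HSP90AB1 was -1.14 ± 0.08 on the log2 scale with DMSO and -1.44 ± 0.09 with FP54 (SD, n = 3), so the alpha gene fell further by 0.31. All 3 treated libraries were below all 3 controls, which gives the smallest exact permutation p the design allows, 0.1 two-sided (0.133 adjusted over 8 comparisons). In MOLM-13 cells the same balance was -1.84 ± 0.24 with DMSO and -1.85 ± 0.20 with FP54 (SD, n = 3, exact permutation p = 1). HSPD1 minus HSPE1 was 3.30 ± 0.09 with DMSO and 3.70 ± 0.09 with FP54 in NB4 cells (SD, n = 3, exact permutation p = 0.1, adjusted 0.133). In MOLM-13 cells it was 4.01 ± 0.85 and 4.25 ± 0.27 (SD, n = 3, exact permutation p = 0.7, adjusted 0.8). The planned comparisons of HSPA1A and HSPA1B with HSPA8 say nothing of these copies, since their values come from at most 8 reads and lie near the pseudocount.

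The other chaperone genes were taken from 9 lists, without the members, and 78 of their 97 genes were tested in each line. In MOLM-13 cells 22 of the 78 were called lower and 1 higher, with a median log2 fold change of -0.27. In NB4 cells 23 were called lower and 7 higher, with a median of -0.22. The shares over all genes tested were 9.04% lower and 9.3% higher in MOLM-13 cells and 10.7% and 18.6% in NB4 cells. These shares also stand beside the counts of each list below, where a count of 1 says nothing of the list as a whole.

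**Figure D4:**
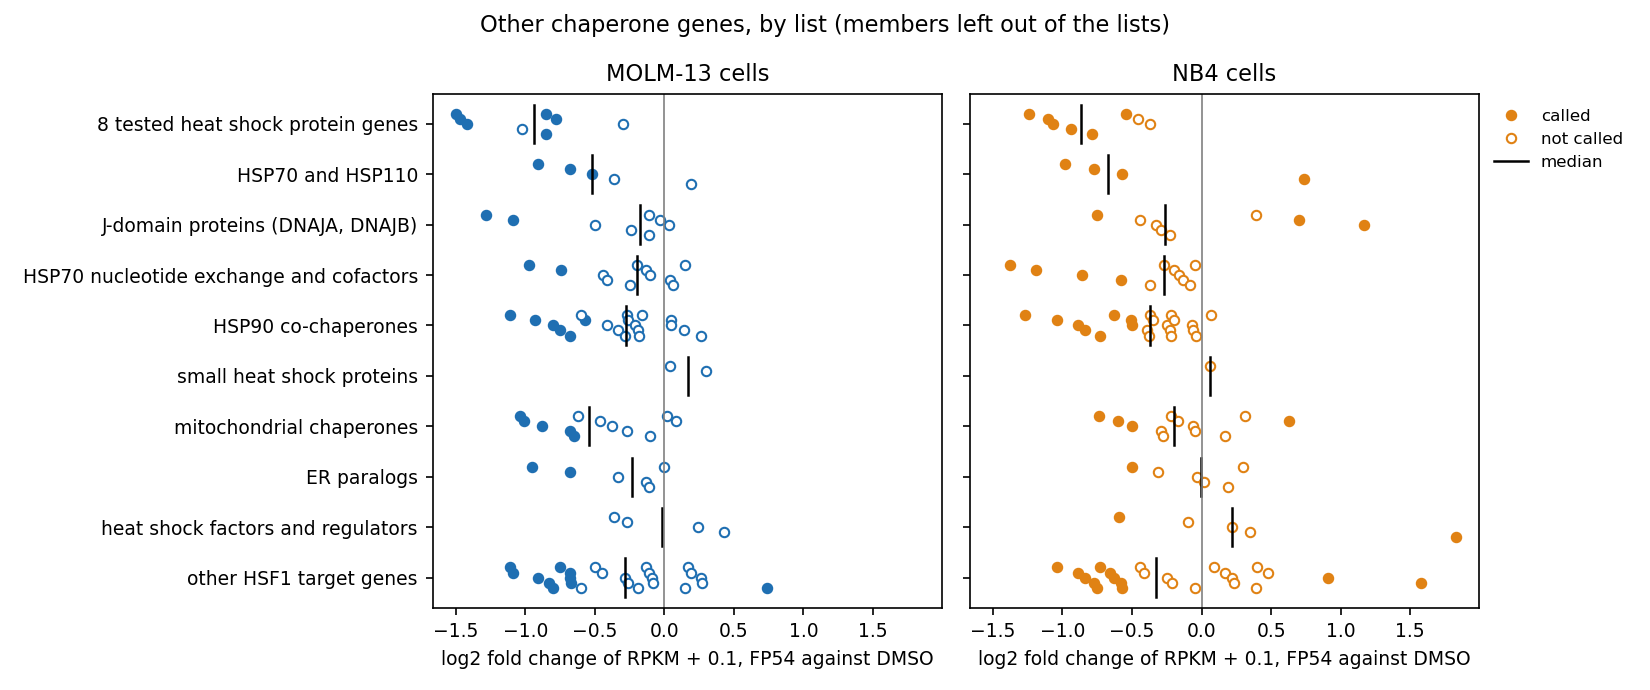
Log2 fold change of RPKM + 0.1, FP54 against DMSO, for each tested gene of the 9 chaperone lists and for the 8 tested members in MOLM-13 and NB4 cells. Filled points were called, open points were not, and the black line is the median, which is -0.94 and -0.87 for the members.

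Of the other HSP70 and HSP110 genes, 3 of 5 tested fell in MOLM-13 and 3 of 4 in NB4 cells, where 1 rose. The MOLM-13 count of 3 was 1 without DMSO replicate 1 and 0 without DMSO replicate 3 or FP54 replicate 1. HSPA4L, an HSP110, fell by 0.91 on the log2 scale in MOLM-13 and by 0.77 in NB4 cells, and HSPA14, a ribosome-bound HSP70, by 0.52 and 0.98. HSPA4 fell by 0.68 and 0.57. HSPA13, an HSP70 of the secretory pathway, rose by 0.74 in NB4 cells. Among the J-domain proteins 2 of 8 fell in MOLM-13 cells, and 1 of 8 fell and 2 rose in NB4 cells. These NB4 counts are near the shares over all genes tested there, 10.7% lower and 18.6% higher. The 2 that rose became 1 without DMSO replicate 3, FP54 replicate 2 or FP54 replicate 3 and with either other scaling, and the 1 that fell became 3 with median-ratio scaling and 2 with quantile normalization. DNAJA1, a main partner of HSPA8 and the most abundant of this list, went from 123 ± 18.6 to 58.8 ± 15.2 RPKM in MOLM-13 and from 409 ± 32.6 to 242 ± 7.17 RPKM in NB4 cells (SD, n = 3, limma adjusted p = 0.00644 and 5.08e-05). DNAJA4 fell by 1.28 in MOLM-13 cells, while DNAJB2 and DNAJB14 rose by 1.17 and 0.70 in NB4 cells.

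Of the 11 nucleotide exchange factors and cofactors of HSP70, 2 fell in MOLM-13 and 4 in NB4 cells, and in limma none rose, 0 also at an unadjusted p below 0.05. The MOLM-13 count of 2 was 1 when DMSO replicate 1, DMSO replicate 3, FP54 replicate 1 or FP54 replicate 3 was left out. HSPBP1, which releases nucleotide from HSP70, fell by 0.74 in MOLM-13 and by 1.19 in NB4 cells. BAG1, which releases clients from HSP70, fell by 1.38 and BAG2 by 0.86 in NB4 cells, and DNAJC2, of the ribosome-associated complex, fell by 0.97 in MOLM-13 and by 0.58 in NB4 cells. The HSP90 co-chaperones had 6 of 20 lower in MOLM-13 and 8 of 21 lower in NB4 cells, with none higher, 0 also at an unadjusted p below 0.05. AHSA1, which speeds up the ATPase of HSP90, went from 54.5 ± 14.1 to 24.9 ± 4.96 RPKM in MOLM-13 and from 131 ± 9.87 to 63.6 ± 2.54 RPKM in NB4 cells (SD, n = 3, limma adjusted p = 0.00969 and 5.76e-06). NUDC fell by 0.93 and 1.27, with overlapping libraries in MOLM-13 cells. STIP1, the bridge between HSP70 and HSP90, fell by 0.80 in MOLM-13 and by 0.63 in NB4 cells, and CHORDC1 by 0.89 in NB4 cells.

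The mitochondrial chaperones had 5 of 12 lower in MOLM-13 cells, and 3 lower and 1 higher in NB4 cells. The 5 became 3 without DMSO replicate 3, and the 1 higher became 0 without DMSO replicate 1 and with either other scaling. TRAP1, the mitochondrial HSP90, GRPEL2, a nucleotide exchange factor, and CLPB, a disaggregase, fell by 1.04, 1.01 and 0.88 in MOLM-13 cells. In NB4 cells CLPB fell by 0.74, GRPEL1 by 0.60 and TRAP1 by 0.50, and HSCB, which serves iron-sulfur proteins, rose by 0.63. HSPA9 and LONP1 were called lower in MOLM-13 cells, with log2 fold changes of -0.68 and -0.65. Neither was called in NB4 cells, where their log2 fold changes were 0.17 and 0.31. Of the 6 chaperones of the endoplasmic reticulum, DNAJB11 and HYOU1 fell by 0.95 and 0.68 in MOLM-13 cells and HSP90B1 by 0.50 in NB4 cells. HYOU1 was not called in NB4 cells, where every FP54 library was above every DMSO library (log2 fold change 0.30, limma adjusted p = 0.0118). The MOLM-13 count of 2 was 1 when DMSO replicate 1, DMSO replicate 3, FP54 replicate 1 or FP54 replicate 3 was left out, and the NB4 count of 1 was 0 without DMSO replicate 2 or FP54 replicate 1 and with quantile normalization or limma-voom, and 2 with median-ratio scaling. The medians of this list were -0.23 and -0.01, closer to 0 than those of the members. No other gene of the small heat shock protein list was called in limma, of 2 tested in MOLM-13 and 1 in NB4 cells, and 0 had an unadjusted p below 0.05. These were HSPB7 and HSPB11 in MOLM-13 and HSPB11 alone in NB4 cells, so this says little of the family.

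None of the 4 heat shock factors and regulators tested in MOLM-13 cells was called in limma, where 1 was higher and 1 lower at an unadjusted p below 0.05, and of 5 in NB4 cells 1 was called in each direction. The 1 called higher was HSF4, at 0.488 ± 0.151 RPKM with DMSO and 1.95 ± 0.0327 RPKM with FP54 (SD, n = 3). HSF4 passed the filter at a mean of 1 RPKM only through its FP54 libraries, so nothing is read from its call. Over all alternatives the count of 1 higher was between 0 and 2. HSBP1, which binds HSF1, fell from 19.4 ± 1.22 to 12.8 ± 0.699 RPKM in NB4 cells (SD, n = 3, limma adjusted p = 0.000342). HSF1 mRNA was at 10.5 RPKM with DMSO and 12.5 with FP54 in MOLM-13 cells and at 8.5 and 9.9 in NB4 cells (limma adjusted p = 0.322 and 0.121), which does not bear on the activity of the protein. Of the other HSF1 target genes, 9 of 25 fell and 1 rose in MOLM-13 cells, and 10 of 24 fell and 2 rose in NB4 cells. The 1 that rose became 0 when DMSO replicate 1, DMSO replicate 3, FP54 replicate 1 or FP54 replicate 3 was left out, the 2 became 4 without DMSO replicate 2, and the 10 became 6 with quantile normalization. SLC5A3 was higher in both lines, by 0.74 and 0.91, and PPP1R15A, which reverses the phosphorylation of eIF2 alpha, went from 25.5 ± 7.94 to 74.5 ± 5.88 RPKM in NB4 cells (SD, n = 3, limma adjusted p = 4.64e-05). Most of the genes that fell on this list, AHSA1, DNAJA1 and HSPA4L among them, were already counted in the lists above. Only CCT2 and JMJD6 in MOLM-13 cells and CCT2 and MRPL18 in NB4 cells were not. For the genes of these lists the difference between the lines is not given, and a change named in 1 line alone is not shown to be particular to it.

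The genes whose pattern over the 12 libraries, centred within each cell line, was most like the mean of the 8 tested members were POP1, PA2G4, AHSA1, ALYREF and BOP1, of 8841 genes compared. Pearson's r was between 0.991 and 0.994, as a description over libraries that fall into treatment groups. The centred mean of the members was between 0.18 and 0.68 with DMSO and between -0.84 and -0.30 with FP54 in MOLM-13 cells, on the log2 scale. In NB4 cells it was between 0.36 and 0.45 with DMSO and between -0.43 and -0.37 with FP54. The log2 fold changes of these genes ranged from -1.67 for BOP1 to -1.01 for PA2G4 in MOLM-13 cells and from -1.23 to -0.80 for the same genes in NB4 cells.

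Some markers of the cells moved with the treatment as well. The 12 myeloid markers summed to between 1630 and 1990 RPKM with DMSO and between 1860 and 2500 RPKM with FP54 in MOLM-13 cells, and to between 2300 and 2580 and between 1280 and 1350 RPKM in NB4 cells. Of the 12 tested in MOLM-13 cells 3 were called higher and 1 lower, and of the 11 tested in NB4 cells 2 were called higher and 4 lower. Over all genes tested 9.3% were called higher and 9.04% lower in MOLM-13 cells, and 18.6% and 10.7% in NB4 cells. The 1 lower in MOLM-13 and the 2 higher in NB4 cells are near those shares. MPO, a granule enzyme, fell by 2.06 on the log2 scale in MOLM-13 and by 0.96 in NB4 cells, PRTN3 fell by 1.93 in NB4 cells, and CD68, a lysosomal protein of macrophages, rose by 1.11 and 0.99. CSF1R, a receptor of monocytes, rose by 0.77 in MOLM-13 cells. The 9 stromal and epithelial markers summed to between 26.4 and 29.5 RPKM with DMSO and between 42.5 and 44.9 RPKM with FP54 in MOLM-13 cells, and to between 11.4 and 11.6 and between 16.2 and 18.8 RPKM in NB4 cells. PECAM1, which myeloid cells also carry, rose by 0.63 and 1.27, KRT8 rose by 0.59 and the lymphoid marker CD3D by 0.69 in NB4 cells. The largest part of the NB4 sum was EPCAM, an epithelial marker, at a mean of 8.15 RPKM with DMSO and 9.71 with FP54, which was not called. COL3A1 and CDH1 were at 0 in all MOLM-13 libraries and KRT19 in all NB4 libraries. The part of such a shift in the levels of the heat shock protein genes was not tested. With another scaling of the libraries the direction stayed: all 8 tested log2 fold changes were negative in each line with the values as deposited, with median-ratio scaling and with quantile normalization. The median of all tested genes moved from 0.07 to -0.13 with median-ratio scaling in NB4 cells, where all 8 tested members were then called lower.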

How the data were processed

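RNA of MOLM-13 and NB4 cells was sequenced after 48 hours with DMSO or 2 μM FP54, 3 libraries each. These 12 of 22 samples were used; the other 10, from m6A-seq and polysome-seq, were not used here. The authors trimmed reads (Cutadapt 4.8), removed duplicates with Clumpify, aligned to hg38 with STAR 2.7.11b, counted reads on genes with featureCounts 2.0.3 and deposited RPKM. The NB4 table is matched to its line by name only. Reads were recovered from RPKM with GENCODE 44 exon lengths, found for 20304 of 20411 genes. Between 98.9 and 99.3% of low values came out whole within 0.1, so counting error is known, and counts and shares of reads cover counting error only.

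The RPKM were read in Python 3.11.15 (numpy 2.4.6, pandas 2.3.3, matplotlib 3.10.9). Within each cell line, log2(RPKM + 0.1) was fitted in R 4.3.3 with limma 3.58.1 (lmFit, eBayes with trend) for genes whose RPKM averaged 1 or more. Calls needed p below 0.01 before adjustment with a change of 0.5 or more on the log2 scale, and p-values were Benjamini-Hochberg adjusted over all tested genes. The difference between lines was an interaction over 12 libraries. Paralogs were compared with exact permutation tests. The fits were tested on simulated data. Promoter windows and their sequences are from RefSeq (GRCh38.p14), and all 10 members matched by symbol.

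The members, the lists and the tests were chosen with earlier results of these data known. Genes named are the members, the 5 genes most like them, and FTO. From each list and line the 3 called genes with the largest fold change are named too. HSF1, EPCAM, HSPB7, HSPB11, HSPA9, LONP1, CCT2, JMJD6, MRPL18 and the markers at 0 were added after their values were seen. Tried besides were pseudocounts 0.01 and 1, a filter at 5 RPKM or none, scaling by median ratios or quantiles, a replicate block, eBayes robust or without trend, leaving out each library, an adjusted p below 0.05 as the cutoff and, added after seeing the data, limma-voom on the recovered reads. The replicate number was not a block: deviations of libraries with the same number correlated between -0.26 and -0.06 in MOLM-13 cells and between -0.14 and 0.12 in NB4 cells.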

Additional observations from a re-analysis of the deposited data

Results flagged for a closer look

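The FP54 effect on HSPB1 differed between the cell lines in the test of the difference itself. The log2 fold change was -1.42 in MOLM-13 and -0.46 in NB4 cells, a difference of 0.96 (95% interval 0.51 to 1.42; limma interaction adjusted p = 0.00747). All 3 FP54 libraries were below all 3 DMSO libraries in each line. Over the alternatives the difference ranged from 0.79 to 1.23, and without DMSO replicate 3 of both lines it was 0.82 with an interaction adjusted p of 0.0602. Over all 8849 genes tested that way 14.2% differed between the lines, so the count of 1 of 8 members is no larger a share than over all genes.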

How the results depend on the processing

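Every fitted log2 fold change of the 8 tested members was negative in both lines under each alternative; HSPE1 in MOLM-13 cells was not fitted with the filter at a mean of 5 RPKM. In MOLM-13 cells the number called lower was 6, and it was 4 with no filter, 5 with median-ratio scaling or without the variance trend, 6 with limma-voom on recovered reads and between 4 and 6 when a library was left out. The calls that were lost there were those of HSP90AA1 and HSP90AB1. With the replicate block 7 were called in MOLM-13 cells, HSPE1 being added, and 6 in NB4 cells, with no other call of a member changed. In NB4 cells the number called lower was 6, and it was 8 with median-ratio scaling and 5 with quantile normalization, where HSPD1 was not called at -0.34. It was 6 whichever library was left out, but without DMSO replicate 3 HSPD1 was lost at -0.44 and HSPB1 gained at -0.56. The count of members with a different effect in the 2 lines was 1, and between 0 and 1 when a library was left out of both: it was 0 without DMSO replicate 3. FP54 replicate 2 of MOLM-13 cells, at 5833283 reads on genes, was the shallowest library and bounds the precision for low genes, and HSPA1A and HSPA1B could not be tested at any depth here. Their difference from HSPA8 is set by the pseudocount and by HSPA8: with a pseudocount of 0.01 it came to 0.90 in MOLM-13 and 0.81 in NB4 cells for HSPA1B and to 0.35 in NB4 cells for HSPA1A, and nothing is read from these values. Only the larger moves of the chaperone list counts when a library was left out are given beside them, and other counts changed too. The number of HSP90 co-chaperones called lower was then between 4 and 9 in MOLM-13 and between 6 and 8 in NB4 cells. For the other HSF1 target genes it was between 6 and 11 in MOLM-13 and between 9 and 11 in NB4 cells, and for mitochondrial chaperones between 3 and 7 in MOLM-13 cells.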
